A study of Mus musculus with 21 samples.

Results

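Stem fibro-adipogenic progenitors (stem FAPs) are described here in regenerating muscle of aged mice. They were taken as every cell that carried the label "FAPs (Stem)" after the study's Harmony integration, which gave 2210 of the 87822 cells in the deposited tables (2.52%). They made up 18.2% of the 12150 cells in the 3 FAP classes, beside 6580 pro-remodeling FAPs and 3360 adipogenic FAPs. The cells came from tibialis anterior muscles of 20-month-old female C57Bl/6J mice, 1 mouse per sample and 21 mice in all. Time is given in days post-injury (dpi): 4 mice were uninjured, 4 each were taken on days 1 and 3.5, and 3 each on days 2, 5 and 7. Injury was by notexin, a snake-venom phospholipase that destroys myofibers, injected into the muscle, and uninjured muscle is the only control. Whole muscle was dissociated and captured with 10x Chromium v3 chemistry without sorting, so that shares depend on how well each cell type survived dissociation.

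FAPs are mesenchymal cells that lie between the myofibers and are marked by the receptor Pdgfra. In healthy muscle they maintain the connective tissue and support muscle stem cells. After injury they expand, secrete matrix and growth factors, and are then cleared again, while in chronic damage they can turn into adipocytes and scar-forming fibroblasts. The class called stem FAPs is usually set apart by Dpp4 and Pi16, surface or secreted proteins of a fibroblast population found around vessels and in fascia of many tissues. The deposited tables hold values per cell (transcripts, genes, shares of gene sets and labels) and no values of single genes, so Pdgfra, Dpp4 and Pi16 could not be checked and the label stands as the authors gave it.

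Stem FAPs per mouse ranged from 7 to 389 with a median of 54. Fewer than 10 were present in 1 dpi mouse B, which had 9, and in 2 dpi mouse C, which had 7, and values per cell of these 2 mice were left out of the comparisons. Each stem FAP barcode was seen in 1 sample, with 0 of the 2210 shared between samples. All 2210 were called singlets by the authors, which follows from their removal of putative doublets before integration. The tables held between 974 and 10556 cells per mouse and between 5602464 and 70730171 transcripts per mouse, counted as unique molecular identifiers (UMIs).

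As a share of all cells, stem FAPs were at their lowest in the first days after injury and were close to the uninjured range again by 5 to 7 dpi. In uninjured mice A to D they made up 2.96%, 11.4%, 2.09% and 2.98% of cells. At 1 dpi the shares were 0.790%, 0.752%, 2.16% and 1.35%, and at 2 dpi 1.31%, 0.935% and 0.220%. Mouse B stood apart from the other uninjured mice, and apart from 1 dpi mouse C every mouse at 1 and 2 dpi was below every uninjured mouse. At 3.5 dpi the shares were 1.50%, 1.37%, 0.934% and 0.796%, again below all uninjured mice. They were 1.95%, 3.82% and 2.03% at 5 dpi and 6.32%, 4.15% and 1.68% at 7 dpi, where the mice overlapped the uninjured ones.

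The mean share was 4.85% ± 4.38 (SD, n = 4) in uninjured muscle. At 1, 2, 3.5, 5 and 7 dpi it was 1.26% ± 0.659 (n = 4), 0.821% ± 0.553 (n = 3), 1.15% ± 0.338 (n = 4), 2.60% ± 1.06 (n = 3) and 4.05% ± 2.32 (n = 3). Without uninjured mouse B the uninjured mean was 2.67% ± 0.507 (n = 3), and the 7 dpi mean then lay 1.37 percentage points above it in place of below. The share differed among the 6 time points in a permutation test over mice (adjusted p = 0.0303 over 23 cell types), with the largest difference from uninjured mice, -4.03 percentage points, at 2 dpi. This is a weak statement about stem FAPs, since 78.3% of all cell types passed the same test. Against uninjured mice at each time point, 0 of the 5 exact permutation tests passed after adjustment and 1 had an unadjusted p under 0.05, that at 3.5 dpi (p = 0.0286, the smallest this design allows, adjusted p = 0.143). The call for the time course was lost without 2 dpi mouse B (adjusted p = 0.0502), 2 dpi mouse C (adjusted p = 0.0595) or 7 dpi mouse B (adjusted p = 0.0529) in the permutation test.

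The denominator moved over the same days. Immune cells made up 2.71% ± 0.692 (n = 4) of cells in uninjured muscle. Over the 5 time points after injury they made up 62.3% ± 16.7 (n = 4), 68.7% ± 8.85 (n = 3), 73.4% ± 4.28 (n = 4), 52.3% ± 17.0 (n = 3) and 27.6% ± 2.97 (n = 3). Among labelled non-immune cells, stem FAPs were 5.02% ± 4.58 (n = 4) in uninjured muscle and 4.92% ± 3.57 (n = 4), 4.70% ± 3.88 (n = 3), 4.94% ± 0.766 (n = 4), 6.47% ± 2.57 (n = 3) and 5.76% ± 3.40 (n = 3) at the 5 later time points in order. The uninjured mean rests on mouse B, with 11.9% against 2.14% to 3.06% in the other 3 mice, and without it the mean was 2.74% ± 0.524 (n = 3), below the mean of every later time point. With this denominator the permutation test detected no difference over time, either with mouse B (adjusted p = 0.962) or, in an alternative chosen after seeing the data, without it (adjusted p = 0.829). The largest difference was at 5 dpi in both cases, 1.45 percentage points higher than in uninjured mice with mouse B and 3.73 points higher without it. Fewer stem FAPs per muscle and more cells of other types cannot be told apart in these shares.

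A further denominator is the number of barcodes that cellranger called as cells before the authors' filter. Of these, stem FAPs were 1.62% ± 0.871 (n = 4) in uninjured muscle, 0.634% ± 0.427 (n = 3) at 2 dpi, and by 7 dpi 2.70% ± 1.61 (n = 3). The largest difference then was 1.08 percentage points higher at 7 dpi, with an adjusted p of 0.0533 in the permutation test. The part of the barcodes that remained after the filter differed between groups. It was 2267 of 5566, 3413 of 13489, 5029 of 11380 and 974 of 1967 in uninjured mice A to D. At 7 dpi it was 5968 of 8942, 4241 of 6109 and 2264 of 3751.

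Within FAPs the balance of classes shifted away from stem FAPs. Of all FAPs, the stem class held 25.5%, 28.2%, 20.2% and 27.9% in uninjured mice A to D. It held 19.8%, 17.3%, 17.7% and 19.3% at 1 dpi, and 22.8%, 23.1% and 12.1% at 2 dpi, the last from the mouse with 7 stem FAPs. All 4 mice at 1 dpi were below every uninjured mouse, whereas the mice at 2 dpi overlapped them. The shares were 14.6%, 14.9%, 14.0% and 10.3% at 3.5 dpi, 19.1%, 13.1% and 16.7% at 5 dpi, and 19.5%, 15.4% and 12.1% at 7 dpi. All 10 mice of these later time points were below the lowest uninjured mouse.

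**Figure D1:**
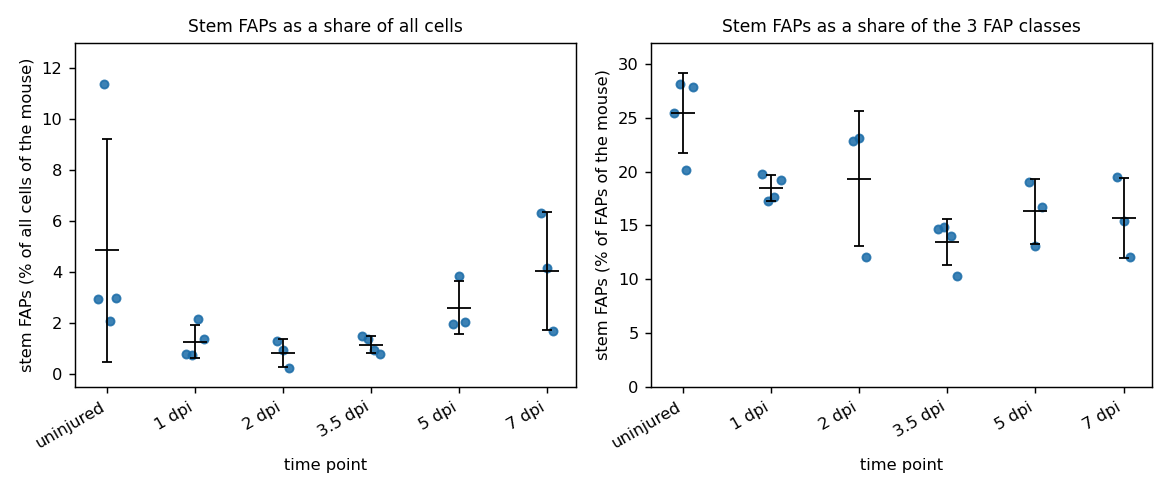
Share of stem FAPs among all cells (left) and among the 3 FAP classes (right), in percent, by time point. Each point is a mouse, and the bars are the mean and SD of a group. On the left the point far above the others is uninjured mouse B at 11.4%, and on the right all mice from 3.5 dpi on lie below the 4 uninjured mice.

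The mean of this share was 25.4% ± 3.72 (n = 4) in uninjured muscle. Through 1, 2, 3.5, 5 and 7 dpi it was 18.5% ± 1.22 (n = 4), 19.3% ± 6.30 (n = 3), 13.5% ± 2.12 (n = 4), 16.3% ± 3.02 (n = 3) and 15.7% ± 3.74 (n = 3). The stem class differed over time (adjusted p = 0.0235 over the 3 classes, permutation test), with the largest difference, -12.0 percentage points, at 3.5 dpi. Over the same mice the pro-remodeling class was 48.6% ± 2.94 of FAPs in uninjured muscle and 60.4% ± 2.21 at 3.5 dpi and did not pass the test (adjusted p = 0.0782, permutation test). The adipogenic class was 26.0% ± 2.03 in uninjured muscle and 26.1% ± 1.04 at 3.5 dpi (adjusted p = 0.654, permutation test). No single time point passed after adjustment. The exact permutation test gave an adjusted p of 0.0714 at 1, 3.5, 5 and 7 dpi and of 0.200 at 2 dpi, with unadjusted p of 0.0286 at 1 and 3.5 dpi. The number of stem FAPs for each adipogenic FAP was 0.987 ± 0.190 (n = 4) in uninjured muscle and 0.517 ± 0.0876 (n = 4) at 3.5 dpi.

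The call for the share of FAPs was lost without uninjured mouse A (adjusted p = 0.0639), uninjured mouse B (adjusted p = 0.0852), uninjured mouse D (adjusted p = 0.0822) or 3.5 dpi mouse D (adjusted p = 0.0521), each in the permutation test, and the direction was kept. Exact 95% intervals of single mice, which cover counting error only, ran from 25.8% to 30.6% in uninjured mouse B with 1380 FAPs, and from 4.99% to 23.3% in 2 dpi mouse C with 58.

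Stem FAPs carried more transcripts per cell at 1 and 3.5 dpi than in uninjured muscle. The median number of UMIs per stem FAP, after the authors subtracted ambient RNA, was 9262, 5616, 6076 and 10507 in uninjured mice A to D. It was 37372, 19970 and 21878 in 1 dpi mice A, C and D, and 9122 and 9329 in 2 dpi mice A and B. All 3 mice at 1 dpi were above every uninjured mouse, and both mice at 2 dpi fell within the uninjured range. At 3.5 dpi the medians were 18512, 17936, 14992 and 20089, again above every uninjured mouse. They were 9409, 6157 and 10369 at 5 dpi and 7625, 9067 and 6221 at 7 dpi, inside the uninjured range.

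On the log2 scale the mean of the mouse medians was 3.34-fold higher at 1 dpi and 2.34-fold higher at 3.5 dpi than in uninjured mice, and 1.22-fold, 1.11-fold and 0.994-fold of the uninjured level at 2, 5 and 7 dpi. The course over time passed the test (adjusted p = 0.00181 by permutation over all cell types and measures). The number of genes detected per cell followed, with a mean of 2540 ± 559 (n = 4) in uninjured muscle and of 5072 ± 353 (n = 3), 3094 ± 3.89 (n = 2), 4388 ± 161 (n = 4), 2876 ± 503 (n = 3) and 2654 ± 333 (n = 3) through the successive time points (adjusted p = 0.00181, permutation test).

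**Figure D2:**
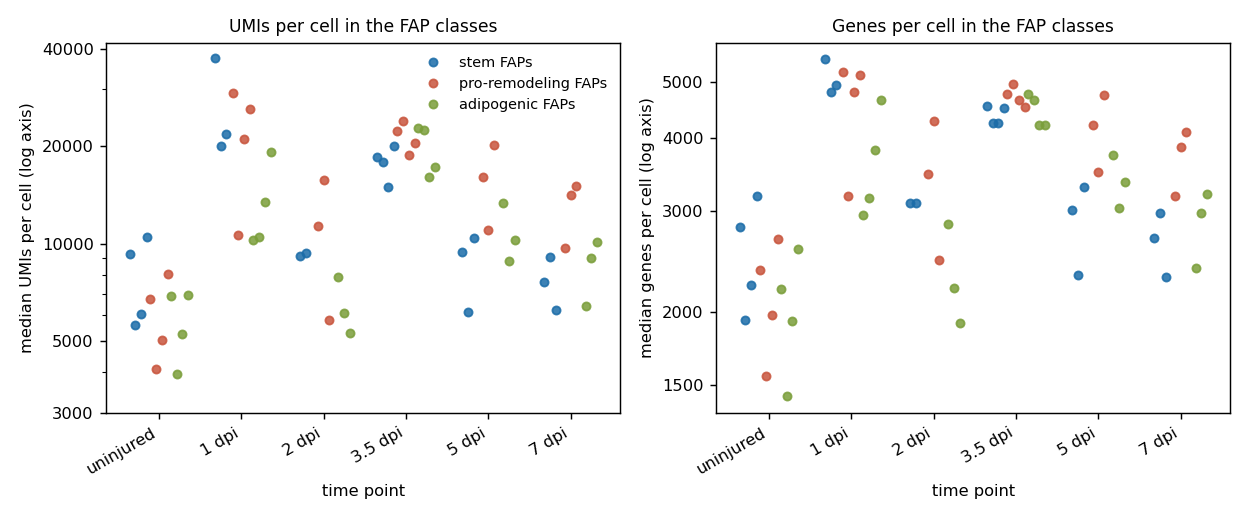
Median UMIs per cell (left) and genes per cell (right) of stem, pro-remodeling and adipogenic FAPs by time point, on log axes, with a point for each mouse that had at least 10 cells of the class. Stem FAPs lie above the uninjured mice at 1 and 3.5 dpi, and at 5 and 7 dpi they lie below the pro-remodeling FAPs.

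Depth and cell type mix moved as well. Over all cells the median number of UMIs was 3906 ± 685 (n = 4) in uninjured muscle and then 7384 ± 2114 (n = 4), 6837 ± 2722 (n = 3), 12086 ± 2765 (n = 4), 6720 ± 1401 (n = 3) and 5982 ± 843 (n = 3) in the order of days. The share of reads in barcodes called as cells was 44.7%, 49.1%, 56.3% and 44.2% in uninjured mice A to D. In 1 dpi mouse B it was 47.7%, and in the other injured mice it lay between 66.5% and 94.8%. The part of this share in the values per cell was not tested. Sequencing saturation was 64.5% ± 16.9 in uninjured samples, 60.8% ± 18.1 at 1 dpi and 41.1% ± 6.96 at 3.5 dpi. In an alternative chosen after seeing the data, UMIs and genes were divided by the saturation of the sample. The calls for UMIs and genes were both kept, with a largest difference of 2.00 on the log2 scale for UMIs at 1 dpi. The authors' doublet score, a fraction of simulated doublets near a cell, had a mean of mouse medians of 0.253 ± 0.128 (n = 4) in uninjured stem FAPs. It was 0.360 ± 0.0216, 0.324 ± 0.0370 and 0.134 ± 0.0458 at 1, 3.5 and 7 dpi, and its part in these values was not tested.

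The number of genes found in a cell depends on its number of UMIs. At a fixed number of UMIs, the log2 number of genes of stem FAPs was -0.08 ± 0.0429 (n = 4) in uninjured muscle relative to the fit over all FAPs. On the 5 days after injury it was -0.02 ± 0.0647 (n = 3), 0.06 ± 0.00721 (n = 2), -0.02 ± 0.0399 (n = 4), 0.04 ± 0.0255 (n = 3) and 0.01 ± 0.00449 (n = 3). The course still passed the test (adjusted p = 0.0308, permutation test), but the largest difference fell from 1.02 to 0.14 on the log2 scale and its time point became 2 dpi.

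The make-up of the transcripts changed with injury too. For each cell the tables give the share of its UMIs from sets of genes. Of the 10 measures tested (UMIs, genes and 8 sets) all 10 differed over time in stem FAPs at an adjusted p under 0.05, where 41.3% of the 230 tests over all 23 cell types did. Pro-remodeling FAPs and muscle stem cells also had 10 of 10, adipogenic FAPs had 8, and the 22 cell types other than stem FAPs together had 38.6% of their 220 tests. In pro-remodeling and adipogenic FAPs the ribosomal share also rose most at 1 dpi, by 9.24 and 6.35 points. The heat shock share rose most there too, by 0.512 and 0.399 points. Their mitochondrial shares differed most at 5 dpi, by -7.46 and -7.03 points. The largest transcription factor difference was -1.07 points at 1 dpi in pro-remodeling and 0.934 points at 7 dpi in adipogenic FAPs. The mitochondrial share passed in 15 of the 23 cell types and the protein-coding share in 17. The sets overlap each other and the measures are not independent. The protein-coding and mitochondrial shares together had a median of 98.7% over stem FAPs. Their sum was not constant, with a 5% quantile of 94.2% and a 95% quantile of 109%. Relative to uninjured mice, the mean protein-coding and mitochondrial shares differed by 5.23 and -6.48 points at 1 dpi. At 5 dpi they differed by 2.42 and -4.83 points. A rise in the first and a fall in the second may therefore be in part the same change, which was not tested. Against uninjured mice at single time points, 0 of 50 exact permutation tests passed after adjustment over measures and time points, with 15 at an unadjusted p under 0.05 and a smallest adjusted p of 0.0952. The smallest p these tests allow is 0.0667 at 2 dpi and 0.0286 at the other time points. Passing after adjustment was therefore hardly possible, and the 0 does not show an absence of change. The p-values given for each set are therefore those of the whole course.

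Ribosomal protein genes, which encode the structural proteins of the ribosome, peaked at 1 dpi. Their share of a stem FAP's UMIs had mouse medians of 12.9%, 14.1%, 12.5% and 12.7% in uninjured mice and of 22.3%, 18.8% and 18.8% at 1 dpi. It was 15.02% and 14.6% at 2 dpi, 13.3%, 14.9%, 14.1% and 16.5% at 3.5 dpi, 13.5%, 11.6% and 11.9% at 5 dpi, and 10.5%, 11.9% and 10.1% at 7 dpi. All mice at 1 and 2 dpi were above every uninjured mouse, and all at 7 dpi were below every uninjured mouse. The course had an adjusted p of 0.000575 (permutation test), and the mean at 1 dpi was 6.91 percentage points above the uninjured mean.

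Heat shock genes, whose products help proteins fold, peaked at the same time. The medians were 0.779%, 0.593%, 0.558% and 0.600% of UMIs in uninjured mice, 1.51%, 1.05% and 1.38% at 1 dpi, and 0.814% and 0.807% at 2 dpi. Mice at 1 and 2 dpi were above every uninjured mouse. At 3.5, 5 and 7 dpi the means were 0.712% ± 0.0505 (n = 4), 0.619% ± 0.0767 (n = 3) and 0.613% ± 0.0372 (n = 3), and the mice overlapped the uninjured ones (adjusted p of the course = 0.00558, permutation test).

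Mitochondrial transcripts, which come from the mitochondrial genome and encode parts of the respiratory chain, went the other way. Their share was 8.40%, 13.6%, 12.4% and 6.33% in uninjured mice, 2.70%, 3.33% and 5.02% at 1 dpi, and 4.97%, 5.52% and 5.52% at 5 dpi. All mice at 1 and 5 dpi were below every uninjured mouse, while those at 2, 3.5 and 7 dpi, with means of 6.02% ± 1.15 (n = 2), 5.22% ± 1.15 (n = 4) and 6.86% ± 0.504 (n = 3), overlapped the uninjured mice. The adjusted p of the course was 0.0325 (permutation test), and uninjured mice spread more widely than any other group, with an SD of 3.38. The call was lost in the permutation test without 1 dpi mouse A (adjusted p = 0.0580), 1 dpi mouse C (adjusted p = 0.0566), 7 dpi mouse A (adjusted p = 0.0507) or 7 dpi mouse B (adjusted p = 0.0510).

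Transcription factor genes were lowest at 1 dpi and highest late. Their share was 4.03%, 3.58%, 3.15% and 3.43% of UMIs in uninjured mice, 3.20%, 3.23% and 3.26% at 1 dpi, and 4.35% and 4.03% at 2 dpi. It was 4.14%, 4.12% and 4.65% at 5 dpi and 4.48%, 4.55% and 4.52% at 7 dpi, above every uninjured mouse at both time points. At 3.5 dpi the mean of 3.58% ± 0.183 (n = 4) was close to the uninjured mean of 3.55% ± 0.370 (adjusted p of the course = 0.00276, permutation test).

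Long intergenic noncoding RNAs (lincRNAs), which encode no protein and lie between genes, were lower after injury and nearer the uninjured level again at 7 dpi. The medians were 1.72%, 1.77%, 2.09% and 2.49% in uninjured mice, 0.668%, 0.943% and 0.587% at 1 dpi, and 0.885% and 0.697% at 2 dpi. They were 1.37%, 1.20%, 1.24% and 1.25% at 3.5 dpi, 0.976%, 1.22% and 1.71% at 5 dpi, and 1.29%, 1.71% and 1.82% at 7 dpi. Every mouse from 1 to 5 dpi with at least 10 stem FAPs was below every uninjured mouse, and the mice at 7 dpi overlapped them (adjusted p = 0.00276, permutation test).

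The remaining sets changed as well. Antisense RNAs had a mean share of 0.0678% ± 0.00643 (n = 4) in uninjured mice and of 0.0487% ± 0.00622 (n = 3) at 1 dpi, where the groups did not overlap (adjusted p of the course = 0.0330, permutation test). The set the authors named bplncRNA had 0.0174% ± 0.00332 (n = 4) in uninjured mice and, without overlap, 0.00727% ± 0.000437, 0.00839% ± 0.000579 and 0.0119% ± 0.00122 through the first 3 time points after injury (adjusted p of the course = 0.0234, permutation test). Protein-coding genes took 89.4% ± 1.30 (n = 4) in uninjured mice and 94.6% ± 0.0908 (n = 3), 93.1% ± 0.721 (n = 2), 93.6% ± 0.785 (n = 4), 91.8% ± 0.381 (n = 3) and 90.7% ± 0.809 (n = 3) over the days that followed (adjusted p of the course = 0.000767, permutation test). The bplncRNA call was lost without uninjured mouse C (adjusted p = 0.0526), and the antisense call without 1 dpi mouse A, C or D or 3.5 dpi mouse A, C or D, with adjusted p of up to 0.132 in the permutation test. Sets of snoRNA, miRNA and snRNA genes were at 0 in most stem FAPs. A miRNA-set UMI was found in a mean of 19.3% of stem FAPs in uninjured mice and of 43.3% at 1 dpi, which are shares at unequal depth and were not tested.

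**Figure D3:**
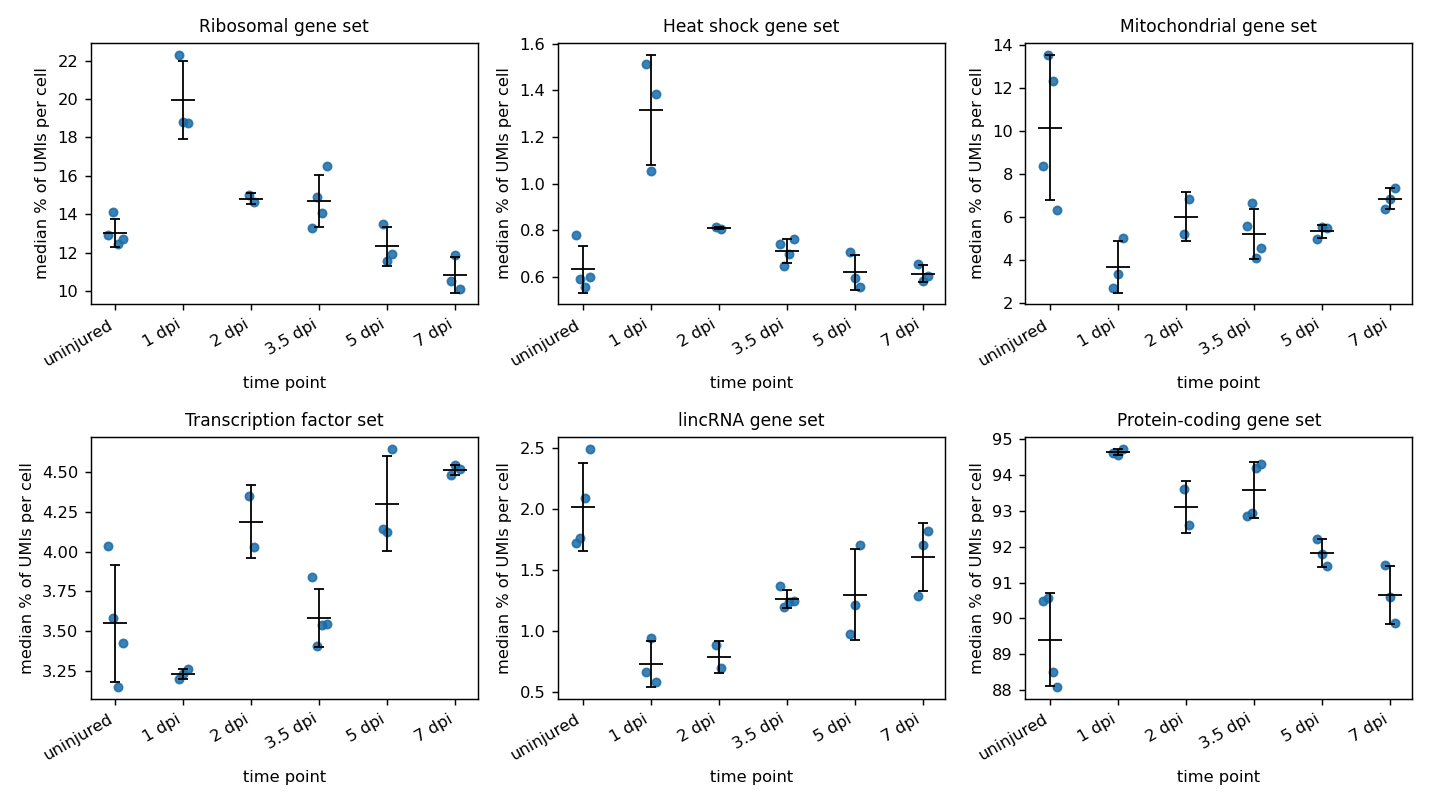
Share of the UMIs of stem FAPs from 6 gene sets by time point, in percent. Each point is the median over the stem FAPs of a mouse with at least 10 of them, and the bars are the mean and SD over mice; the vertical axes do not start at 0. Ribosomal and heat shock shares peak at 1 dpi (means of 20.0% and 1.32%), lincRNA is lowest there (0.733%), and the transcription factor share is highest at 7 dpi (4.52%).

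The 2 mice left out for few cells stood apart from the others of their time points. In 1 dpi mouse B the 9 stem FAPs had a median of 12484 UMIs and a lincRNA share of 2.03%, and in 2 dpi mouse C the 7 stem FAPs had 7067 UMIs and 2.45%, the lincRNA shares of both lying within the uninjured range. With a minimum of 5 cells, which brings both mice in, 7 of the 10 measures passed. The lincRNA set (adjusted p = 0.285), the antisense set (adjusted p = 0.846) and the bplncRNA set (adjusted p = 0.0626) no longer did so in the permutation test. The calls for these 3 sets therefore rest on leaving those mice out.

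Stem FAPs and their sister classes were then compared within each mouse. This takes out a shift that all cells of a sample share, but for shares in percent not a common scaling. The difference between classes has no test, because the classes were clustered from the same transcripts, but its course over time can be tested across mice. Of 20 such gaps (10 measures against each of the other classes), 10 changed over time (50% of those tested, permutation test at an adjusted p under 0.05). The 10 were 7 against pro-remodeling and 3 against adipogenic FAPs. All classes were taken by their Harmony labels, and whether the same kinds of cells held each label at every time point was not tested.

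The gap in transcripts per cell to pro-remodeling FAPs changed sign. In uninjured mice A to D stem FAPs exceeded pro-remodeling FAPs by 0.46, 0.46, 0.27 and 0.39 on the log2 scale. The gap was 0.35, -0.07 and -0.25 at 1 dpi, -0.31 and -0.75 at 2 dpi, and -0.27, -0.42, -0.33 and -0.03 at 3.5 dpi. It was -0.77, -0.84 and -0.96 at 5 dpi and -0.35, -0.64 and -1.28 at 7 dpi. Stem FAPs were thus above pro-remodeling FAPs in all 4 uninjured mice, by a mean of 1.31-fold, and below them in all 12 mice from 2 dpi on, at 0.551-fold at 5 dpi and 0.592-fold at 7 dpi (adjusted p of the course = 0.00147, permutation test).

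The gap in genes per cell had the same course, from 1.19-fold in uninjured mice to 0.690-fold at 5 dpi (adjusted p = 0.0007, permutation test). At a fixed number of UMIs its largest difference turned to 0.06 on the log2 scale at 1 dpi, higher than in uninjured mice. Against adipogenic FAPs, stem FAPs had 1.35-fold the UMIs in uninjured mice, 1.83-fold at 1 dpi and 0.790-fold at 5 dpi (adjusted p = 0.0404, permutation test), and 1.25-fold the genes in uninjured mice and 0.846-fold at 5 dpi (adjusted p = 0.0404, permutation test). Each of these 2 calls was lost in 13 of the 21 permutation tests that left out a mouse, with adjusted p of up to 0.105 for UMIs and 0.0941 for genes. The gap tests used 19 mice, so the runs without 1 dpi mouse B or 2 dpi mouse C repeat the main test. Runs without 2 dpi mouse A or B drop the 2 dpi time point, which then has too few mice. The gene call was also lost with means over cells (adjusted p = 0.0630) and at a fixed number of UMIs, where the largest difference was -0.03 on the log2 scale (adjusted p = 0.490). Without 1 dpi mouse D the largest UMI difference was at 1 dpi and positive, 0.78 on the log2 scale.

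The ribosomal share set stem FAPs apart in uninjured muscle and much less so after injury. Stem FAPs exceeded pro-remodeling FAPs by 4.90, 5.57, 4.63 and 2.86 percentage points in uninjured mice. The gap was 1.83, 1.51 and 0.752 points at 1 dpi, 0.457 and -0.722 at 2 dpi, and -2.29, -0.580, 0.282 and 1.25 at 3.5 dpi. It was 2.24, 0.199 and 0.0267 at 5 dpi and 1.29, 1.19 and 0.627 at 7 dpi, so that no injured mouse reached the lowest uninjured value (adjusted p = 0.00493, permutation test). Against adipogenic FAPs the gap was 1.27 ± 1.10 points (n = 4) in uninjured mice and -0.891 ± 0.645 (n = 4) at 3.5 dpi and did not pass (adjusted p = 0.102, permutation test).

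The lincRNA share was lower in stem FAPs than in either sister class before injury, and the gap closed by 3.5 dpi. Against pro-remodeling FAPs it was -1.19, -0.577, -0.687 and -0.754 points in uninjured mice and 0.0683, 0.200, -0.0632 and 0.121 at 3.5 dpi. By 7 dpi it was -0.682, -0.442 and -0.835, with 2 of 3 mice inside the uninjured range again (adjusted p = 0.0004, permutation test). Against adipogenic FAPs the mean gap was -0.700 ± 0.434 (n = 4) before injury, whereas 3.5 and 7 dpi gave 0.0477 ± 0.189 (n = 4) and -0.391 ± 0.0602 (n = 3) (adjusted p = 0.00493, permutation test).

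**Figure D4:**
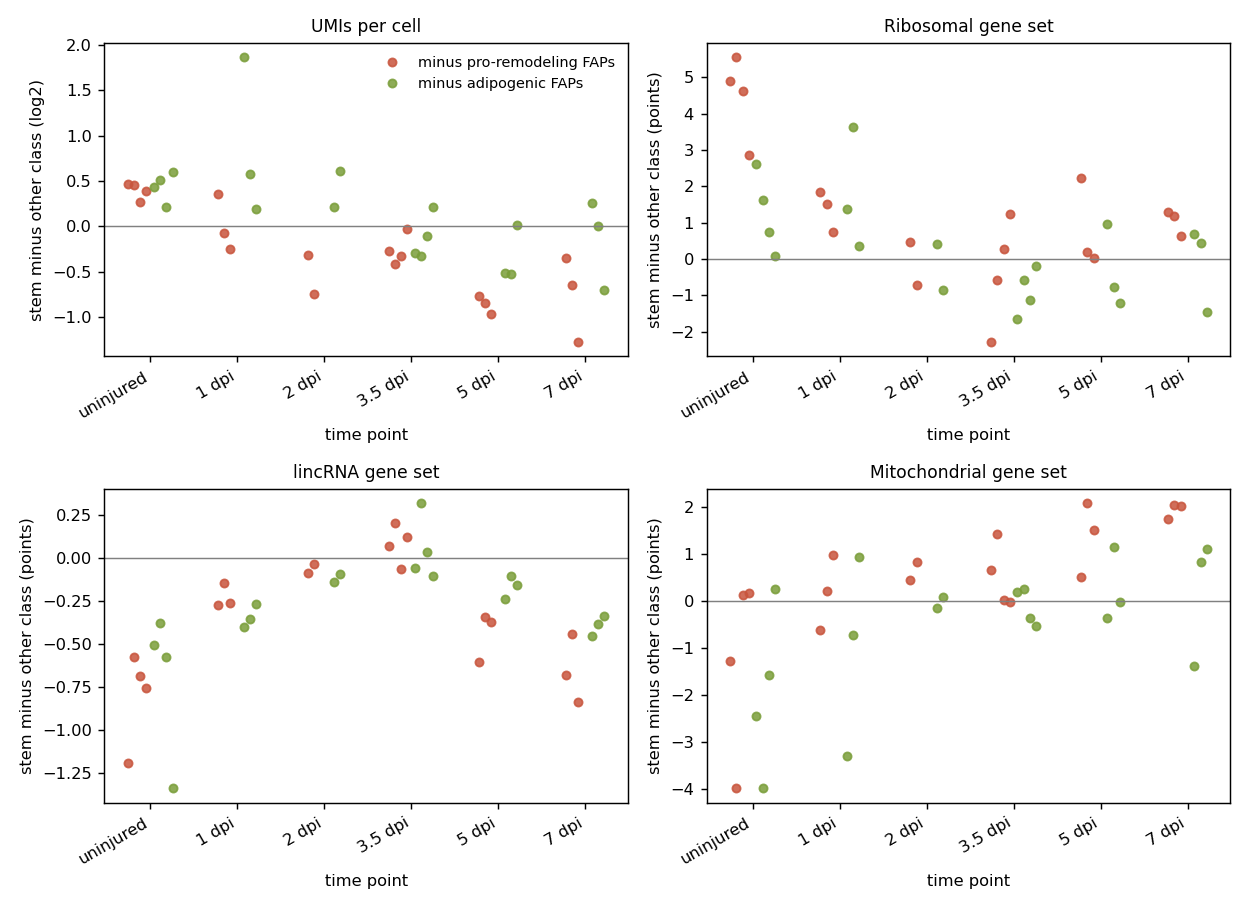
Median of stem FAPs minus the median of another FAP class in the same mouse, by time point, for UMIs per cell (log2) and for the ribosomal, lincRNA and mitochondrial shares (percentage points). Each point is a mouse with at least 10 cells of both classes, and the grey line is no difference. Against pro-remodeling FAPs the UMI gap goes from 1.31-fold in uninjured mice to 0.551-fold at 5 dpi, and the lincRNA gap is nearest 0 between 2 and 3.5 dpi.

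3 other gaps to pro-remodeling FAPs also changed. The mean gap in mitochondrial share was -1.25 points in uninjured mice (SD 1.95, n = 4) and 1.94 points at 7 dpi (SD 0.174, n = 3), where stem FAPs were the higher class in all 3 animals (adjusted p = 0.0404, permutation test). The uninjured gaps were -1.27, -3.996, 0.118 and 0.162 points for mice A to D, so stem FAPs were the lower class in 2 of the 4 mice, and the mean without mouse B was -0.332 points. The transcription factor share was lower in 4 of 4 uninjured mice, with a mean gap of -0.928 points, and higher in both mice at 2 dpi, with 0.370 points (adjusted p = 0.0404, permutation test). The mean gap in antisense share was -0.0367 points in uninjured mice and -0.00467 points at 1 dpi (adjusted p = 0.00493, permutation test). The mitochondrial and transcription factor calls were each lost in 14 of the 21 permutation tests that left out a mouse, with adjusted p of up to 0.0907 and 0.0851. Here too the runs without 1 dpi mouse B or 2 dpi mouse C repeat the main test. The count of changed gaps was 6 in place of 10 without 1 dpi mouse A or C, without any of the 3.5 dpi mice A to D, without 5 dpi mouse A or B, or without 7 dpi mouse B. The gaps in UMIs, genes, ribosomal, lincRNA and antisense share to pro-remodeling FAPs, and in lincRNA share to adipogenic FAPs, passed without each of the 19 mice used in turn. The last of these did not pass under the stricter filter on cells (0.563 points at 3.5 dpi, adjusted p = 0.211, permutation test).

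The same cells were also labelled by the authors after integration with BBKNN and with Scanorama, and before the final filter of the data. Of the 2210 stem FAPs, BBKNN called 1469 (66.5%) stem, 560 (25.3%) pro-remodeling and 178 (8.05%) adipogenic FAPs. In the reverse direction, 98.3% of the 1494 cells that BBKNN called stem FAPs were stem by Harmony, so the Harmony class held nearly all of the narrower BBKNN class. The labels given before the filter matched in 95.1%. In that labelling 0% of the 3360 Harmony adipogenic FAPs were called adipogenic, so it offered fewer classes to move to. Scanorama left 1 of the 2210 cells in its own stem class, which held 6 cells in all, and placed 1858 (84.1%) in adipogenic FAPs and 314 (14.2%) in tenocytes, the fibroblasts of tendon. Its adipogenic class held 10577 cells in all and its pro-remodeling class 119. Of the Harmony pro-remodeling FAPs, 0.456% were pro-remodeling by Scanorama. Scanorama thus hardly separated the FAP classes, and its adipogenic label does not set stem FAPs beside the adipogenic class in particular.

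Both methods placed stem FAPs differently depending on the time after injury. BBKNN called 0, 0, 0.952% and 3.45% of stem FAPs pro-remodeling in uninjured mice A to D. It did so for 56.5%, 41.8% and 51.9% at 1 dpi, 18.8% and 20.9% at 2 dpi, and 68.1%, 30.6%, 55.6% and 87.1% at 3.5 dpi. At 5 dpi the values were 16.3%, 50.0% and 61.1%, and at 7 dpi 22.5%, 13.6% and 39.5%. Each injured mouse with at least 10 stem FAPs was above every uninjured mouse, whereas the share was 0 of 9 cells in 1 dpi mouse B and 1 of 7 in 2 dpi mouse C. The sister classes shared this rise. In uninjured muscle BBKNN gave the pro-remodeling label to 0.660% of Harmony pro-remodeling and 1.41% of adipogenic FAPs. At 1 dpi it covered 82.2% ± 16.6 and 67.0% ± 20.5 of them, and at 3.5 dpi 95.7% ± 1.73 and 89.1% ± 4.69. The means for stem FAPs were 50.1% ± 7.51 at 1 dpi and 60.3% ± 23.7 at 3.5 dpi, so the rise was not particular to them. These shares were not tested. The label BBKNN stem covered 75.6% ± 9.61 (n = 4) of stem FAPs in uninjured muscle and 36.7% ± 21.1 (n = 4) at 3.5 dpi, and its course did not pass (adjusted p = 0.167, permutation test), although without 5 dpi mouse A it did (adjusted p = 0.0446).

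Scanorama called stem FAPs tenocytes almost only at 1 and 2 dpi. The shares were 0, 0.514%, 0 and 0 in uninjured mice, 91.3%, 92.9% and 96.2% in 1 dpi mice A, C and D, and 69.6% and 72.1% in 2 dpi mice A and B. They were 12.8%, 2.78%, 6.35% and 6.45% at 3.5 dpi, 2.88%, 0.309% and 1.85% at 5 dpi, and 0 in all 3 mice at 7 dpi. In the 2 mice with few cells, 4 of 9 stem FAPs at 1 dpi and 1 of 7 at 2 dpi were called tenocytes. BBKNN gave 0 stem FAPs the tenocyte label in the 19 mice at any time point. The switch was shared by the sister classes: Scanorama called 78.5% ± 16.2 (n = 4) of pro-remodeling and 62.9% ± 21.3 (n = 4) of adipogenic FAPs tenocytes at 1 dpi, against 0.0770% and 0.470% in uninjured mice. Of the 1056 cells that Scanorama called tenocytes at 1 dpi, 208 (19.7%) were tenocytes by Harmony and 166 (15.7%) were stem FAPs, while in uninjured muscle 98.1% of 312 were tenocytes by Harmony.

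**Figure D5:**
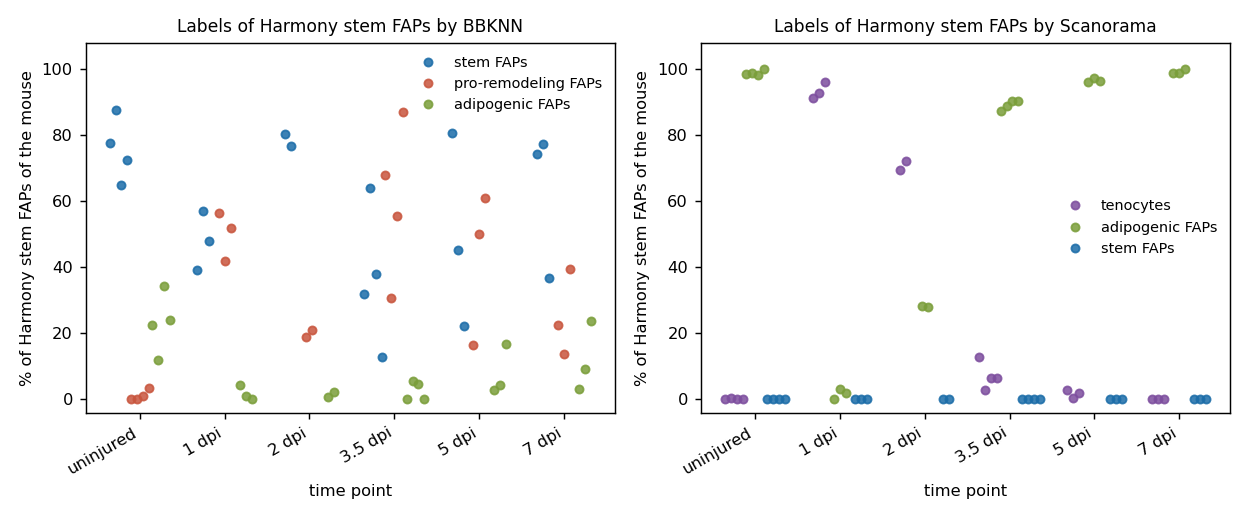
Labels that BBKNN (left) and Scanorama (right) gave to the Harmony stem FAPs of each mouse, in percent of these cells, by time point; each point is a mouse with at least 10 stem FAPs and a label. On the right the tenocyte label lies between 91.3% and 96.2% in the 3 mice at 1 dpi and at 0 in the 3 mice at 7 dpi.

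The cells that moved between labels also differed in transcript content. In 12 mice with at least 10 stem FAPs of both kinds, those that BBKNN called pro-remodeling had 1.51-fold the UMIs of those it called stem, and more in 10 of 12 mice. In 6 mice those it called adipogenic had 0.857-fold the UMIs, and fewer in 5 of 6. These are descriptions, since the labels rest on the same transcripts. In an alternative also chosen after seeing the data, only cells called stem by both Harmony and BBKNN were kept. This left 17 mice with at least 10 cells, and 7 of the 10 measures passed. UMIs (adjusted p = 0.0109) and the ribosomal (adjusted p = 0.00153), heat shock (adjusted p = 0.0113), transcription factor (adjusted p = 0.0280) and lincRNA shares (adjusted p = 0.00938) were among them. The mitochondrial (adjusted p = 0.0843), antisense (adjusted p = 0.0711) and bplncRNA shares (adjusted p = 0.120) were not, by the same permutation test, and the largest difference in UMIs was 1.21 on the log2 scale in place of 1.74. A change within stem FAPs and a change in which cells received the label cannot be told apart in these tables. The same holds for the sister classes in the gaps, which were not retested on cells with the same label by both methods. BBKNN called 0.660% of Harmony pro-remodeling FAPs pro-remodeling in uninjured muscle and 95.7% at 3.5 dpi.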

How the data were processed

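Single-cell RNA-seq was analysed from 21 tables of cells, 1 for each mouse, with 974 to 10556 cells and 5602464 to 70730171 UMIs per table. Per the labels, reads were aligned to mm10 with Cell Ranger 3.1.0 and processed with Seurat 3.1.5. The authors removed ambient RNA with SoupX, filtered cells, scored doublets with DoubletFinder and labelled clusters after Harmony, BBKNN and Scanorama integration. The deposited UMIs per cell are therefore expected counts and need not be whole. The authors also deposited gene counts per cell, shares of UMIs from gene sets in percent, a doublet score and an ambient RNA estimate as a fraction, and counts of reads and barcodes and the saturation in percent for each sample. The stem FAP members, the gene sets and the cell types compared were chosen with earlier results of these data known. The only genes named are the class markers Pdgfra, Dpp4 and Pi16, and no values of single genes were used here.

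Shares of cells were arcsine square root transformed. The median over cells was taken for each mouse with at least 10 cells of a type, which left 19 mice for stem FAPs, with UMIs and genes on the log2 scale. Time courses were tested with an F statistic over 6 time points by 100000 permutations of mice, for which 1e-05 is the smallest p, and single time points against uninjured mice with two-sided exact permutation tests. P-values were adjusted by the Benjamini-Hochberg method, with a threshold of 0.05. All time points share the 4 uninjured mice. Intervals are exact binomial 95% intervals. Alternatives were other labels, denominators, a stricter cell filter (1000 genes, 2000 UMIs and 15% mitochondrial as the limits), minimum cells of 5 and 20, means, edgeR 4.0.16 on cell numbers, a block for the replicate letter and leaving out each mouse. Scripts were tested on simulated data and run in Python 3.11.15 (numpy 2.4.6, pandas 2.3.3, scipy 1.17.1, matplotlib 3.10.9) and R 4.3.3.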

Additional observations from a re-analysis of the deposited data

Results flagged for a closer look

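Uninjured mouse B held stem FAPs at 11.4% of its cells, while the other 3 uninjured mice held 2.09% to 2.98%. All FAPs were high in this mouse, at 40.4% of cells against 10.4% to 11.6%, while stem FAPs were 28.2% of its FAPs against 20.2% to 27.9%. Its distance from the nearest of them was 0.904 of the range of the group. Of 28 groups of 4 mice examined in this way, 1 had such a sample, and chance gives about 1 in 20.

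The gaps between stem FAPs and a sister class within a mouse differed over time in 10 cases, all by permutation tests over mice. Against pro-remodeling FAPs, relative to uninjured mice, the gap in UMIs was -1.25 on the log2 scale at 5 dpi (adjusted p = 0.00147) and that in genes -0.78 at 5 dpi (adjusted p = 0.0007). The ribosomal gap was -4.83 percentage points at 3.5 dpi (adjusted p = 0.00493), the mitochondrial gap 3.19 points at 7 dpi (adjusted p = 0.0404) and the transcription factor gap 1.30 points at 2 dpi (adjusted p = 0.0404). The lincRNA gap was 0.883 points at 3.5 dpi (adjusted p = 0.0004) and the antisense gap 0.0321 points at 1 dpi (adjusted p = 0.00493). Against adipogenic FAPs the gap in UMIs was -0.78 on the log2 scale at 5 dpi (adjusted p = 0.0404), that in genes -0.57 at 5 dpi (adjusted p = 0.0404) and that in lincRNA share 0.748 points at 3.5 dpi (adjusted p = 0.00493).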

How the results depend on the processing

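Depth, the number of mice and the choice of labels limit these results. The share of stem FAPs among all cells kept its call with BBKNN labels, centred log ratios, edgeR and the stricter filter. It lost the call with untransformed shares (-4.03 points at 2 dpi, adjusted p = 0.0899) and with Scanorama labels (-0.0146 points, adjusted p = 0.353), where the class nearly vanished. Its largest difference turned positive among non-immune cells (1.45 points, adjusted p = 0.962) and among non-immune cells other than myonuclei (1.36 points, adjusted p = 0.937). It was also positive in alternatives chosen after seeing the data, among non-immune cells without uninjured mouse B (3.73 points, adjusted p = 0.829) and among barcodes before filtering (1.08 points, adjusted p = 0.0533). Without single mice it ranged from -4.96 to -1.85 points. The share of FAPs reversed with Scanorama labels (1.97 points at 2 dpi, adjusted p = 0.192) and ranged from -13.7 to -10.9 points without single mice. The share of all cells at 7 dpi exceeded that of uninjured mice without uninjured mouse B (1.37 points) and without 7 dpi mouse C (0.379 points), over a range of -1.94 to 1.37 points without single mice. The BBKNN match of labels ranged from -48.0 to -31.0 points without single mice, and passed without 5 dpi mouse A (-41.8 points). The number of changed gaps ranged from 6 to 10 without single mice.

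Among single gaps, that in genes to pro-remodeling FAPs reversed at a fixed number of UMIs (0.0569 on the log2 scale, adjusted p = 0.0150), and that in UMIs to adipogenic FAPs without 1 dpi mouse D (range without single mice -0.954 to 0.781). To adipogenic FAPs, the lincRNA gap lost its call under the stricter filter (0.563 points, adjusted p = 0.211), and the gap in genes with means over cells (-0.41, adjusted p = 0.0630) and at a fixed number of UMIs (-0.03, adjusted p = 0.490). The other reversals were in gaps that had not passed. To adipogenic FAPs these were antisense (-0.00388 points, stricter filter), protein-coding (0.813 with the stricter filter, 0.623 with at least 5 cells, 0.732 without uninjured mouse A, range -1.02 to 0.732), bplncRNA (0.00139, mean over cells) and heat shock (-0.0961 without 1 dpi mouse A, range -0.0961 to 0.272). To pro-remodeling FAPs the bplncRNA gap reversed without uninjured mouse D (-0.00427), 7 dpi mouse A (-0.00485) or 7 dpi mouse B (-0.00542), with a range up to 0.00475. The causes were not tested.

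The replicate letters gave no sign of pairing the mice. Of 48 same-letter pairs 20 had deviations correlated above 0.1, with a median of -0.0228. Of 135 pairs with other letters 59 did, with a median of 0.0226. With the letter as a replicate block, the share of all cells differed by -4.03 points (adjusted p = 0.0339), 9 measures and 7 gaps passed, those in mitochondrial and transcription factor share to pro-remodeling FAPs and in UMIs and genes to adipogenic FAPs no longer doing so (adjusted p of 0.110 to 0.165) and that in heat shock share to adipogenic FAPs newly doing so (adjusted p = 0.0220), and the BBKNN match did not (adjusted p = 0.175). The Scanorama match could not be tested under the stricter filter or without uninjured mouse B, where every value was 0.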

Other observations

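Small RNA sets were detected in a minority of stem FAPs. A snoRNA-set UMI was found in a mean of 31.3% of stem FAPs in uninjured mice and of 44.2%, 23.5%, 33.5%, 20.4% and 24.1% through the 5 time points after injury. An snRNA-set UMI was found in 22.4%, 35.4%, 17.2%, 29.4%, 20.6% and 25.7% in the same order. These shares were taken at unequal depth and were not tested.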
